A study of Mus musculus with 2 samples.

Results

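The genes described here control where a matrix takes up mineral. They are 9 of the 23628 genes with values in both libraries, found by gene symbol, from a list drawn up with earlier results of these data known. The 4 inhibitors of mineral deposition are *Mgp*, *Enpp1*, *Ank* and *Spp1*, and the 5 promoters are *Alpl*, *Phospho1*, *Ibsp*, *Dmp1* and *Phex*. All 9 symbols were present in both libraries.

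The 2 libraries, replicate 1 and replicate 2, are RNA-seq of 1 condition, Sox9GFPHi chondrospheres from mouse. Chondrospheres are cartilage colonies, each started by 1 cell. The founder cells came from the femoral heads of pups at postnatal day 7 that carry an IRES-EGFP reporter at *Sox9*, and were sorted as GFP-high, DAPI-negative and free of the endothelial, erythroid and leukocyte markers CD31, Ter119 and CD45. They grew in methylcellulose at low oxygen with the growth factors FGF2, BMP4, IGF1, LIF and TGF-β1, and poly(A) RNA of the colonies went into stranded libraries. The study's methods treat pups as separate biological replicates, but the labels do not tie a library to a pup, so the spread between the libraries may be in part technical.

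Cartilage makes its own mineral inhibitors. Inorganic pyrophosphate, which coats nascent crystals and stops their growth, is made outside the cell by the ectoenzyme ENPP1 and brought there by the membrane protein ANK, and tissue-nonspecific alkaline phosphatase (*Alpl*) splits it into phosphate. In growth plates, hypertrophic chondrocytes and osteoblasts release matrix vesicles in which PHOSPHO1 frees phosphate, and acidic phosphoproteins of the matrix then hold crystals back or help them form. Articular cartilage stays unmineralized, and loss of *Mgp*, *Enpp1* or *Ank* in mice leads to mineral where it should not be.

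Values are CPM, the reads of a gene scaled to a fixed total per library, after subtraction of a constant 0.0001 CPM that each deposited value carries. The steps between low values imply 43300000 and 42200000 reads on genes in replicates 1 and 2, so that 3 reads, taken here as the floor, stand at 0.0693 and 0.0712 CPM. Intervals of levels below are 95% exact Poisson intervals on the implied reads. Those of ratios are 95% exact binomial intervals on the same reads. Both cover counting error only. The 10 highest genes held 43.4% of the CPM total of replicate 1 and 34.7% of that of replicate 2. The 8 chondrocyte markers were all at 10 CPM or more and summed to 187245 and 129663 CPM, with *Sox9* at 252 and 279 CPM. They formed a smaller share in replicate 2, where 2 of the 8, *Col9a1* and *Matn3*, were lower by the 2-fold rule given further on. By that rule 6.06% of all genes were lower. As these are bulk libraries, fewer cells of a type and less RNA per cell cannot be told apart.

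All 4 inhibitors were abundant and all 5 promoters were lower. *Alpl*, *Ibsp* and *Phex* did not exceed 1.92, 3.27 and 0.807 CPM. *Phospho1* reached 14.9 CPM in replicate 1 and *Dmp1* 40.4 CPM in replicate 2. Summed per kilobase of exon, the inhibitors reached 3447 and 13567 CPM per kilobase in replicates 1 and 2, and the promoters 8.64 and 21.15 CPM per kilobase. The inhibitor sum was thus 399-fold the promoter sum in replicate 1 and 642-fold in replicate 2, a mean log2 ratio of 8.98 ± 0.49 (SD, n = 2). *Spp1* made up 81.3% and 91.8% of the inhibitor sum, and without it the mean log2 ratio was 5.97. The medians, which *Spp1* does not set, were also far apart. The median log2 level per kilobase of the inhibitors was 7.76 in replicate 1 and 9.04 in replicate 2, against -3.00 and 0.67 for the promoters. The difference of these medians was 10.76 and 8.37, with a mean of 9.56 ± 1.69 (SD, n = 2). Both differences exceeded the SD between the libraries. In all 20 pairings of an inhibitor with a promoter, the inhibitor had the higher level per kilobase in both libraries. The narrowest gap was 4.06-fold, between *Enpp1* and *Dmp1* in replicate 2, and the widest was 97126-fold, between *Spp1* and *Phex* in the same library.

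**Figure D1:**
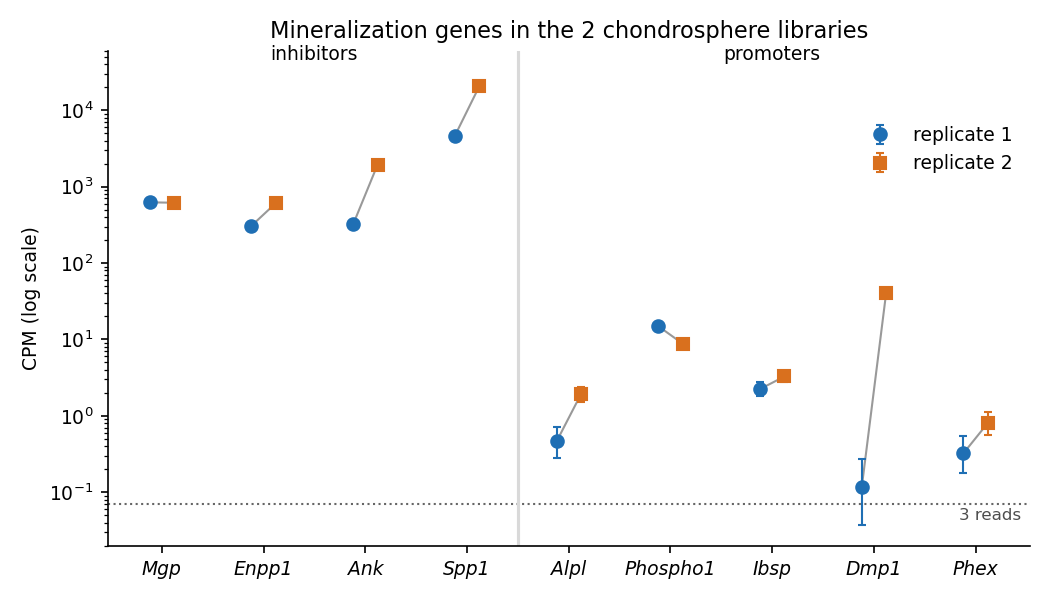
Level of each gene in CPM on a log axis, with the 4 inhibitors on the left and the 5 promoters on the right. Points are the values of replicates 1 and 2 and bars are 95% counting intervals. The lowest inhibitor value is 307 CPM, the highest promoter value is 40.4 CPM, and *Dmp1* has the widest gap between the libraries.

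*Mgp* encodes matrix Gla protein, a small vitamin K-dependent protein that binds calcium and keeps cartilage and arterial walls free of mineral. It lies on chromosome 6 from 136872435 to 136875823 on the minus strand (GRCm38, GENCODE M21, as for all genes here). It stood at 623 CPM in replicate 1 against 615 in replicate 2, a mean of 619 ± 5.33 (SD, n = 2) that ranked 114 among all genes. The libraries were almost level for *Mgp*, with a ratio of replicate 2 to replicate 1 of 0.988. Of the 9 genes it had the smallest spread relative to its level. Vascular smooth muscle is the other well-known source of *Mgp*. The 6 smooth muscle and pericyte markers summed to 597 and 717 CPM, none of the 3 that averaged 1 CPM or more was past 2-fold between the libraries, and most of the sum came from *Cspg4* at 538 and 619 CPM. *Acta2* had 53.4 and 93.0 CPM, *Tagln* had 5.24 and 4.12 CPM, and *Rgs5*, *Myh11* and *Cnn1* did not exceed 0.641, 0.139 and 0.116 CPM. The part of these cells in the *Mgp* value was not tested. *Ggcx*, the carboxylase that adds the Gla residues, had 80.2 and 78.7 CPM. The vitamin K recycling enzymes *Vkorc1* and *Vkorc1l1* had 155 and 158 CPM and 16.5 and 29.5 CPM.

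Of the other proteins with Gla residues, *Ucma*, a cartilage matrix protein, had 373 CPM in replicate 1 against 94.4 in replicate 2. *Gas6*, a ligand of TAM receptors, had 84.1 and 25.2 CPM. Both were lower in replicate 2 while *Mgp* was level. They were the 2 of 6 measured genes of the vitamin K list past 2-fold lower, where 6.06% of all genes were. *Bglap* and *Bglap2*, the osteocalcin genes of osteoblasts, had at most 0.229 and 1.55 CPM, and as near-identical copies their reads cannot be firmly divided.

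*Enpp1* encodes the enzyme that releases pyrophosphate from extracellular ATP, and spans chromosome 10 from 24637914 to 24712159 on the minus strand. It had 307 CPM in replicate 1 against 609 in replicate 2, a mean of 458 ± 214 (SD, n = 2). The ratio of 1.98 (counting interval 1.94 to 2.03) stood well outside counting error, with replicate 2 the higher library.

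*Ank*, on chromosome 15 from 27466677 to 27594909 on the plus strand, encodes the membrane protein through which cells put pyrophosphate, or the ATP it is made from, outside. It had 321 CPM in replicate 1 against 1933 in replicate 2, and moved from rank 218 to rank 33 among all genes. The ratio was 6.02 (counting interval 5.91 to 6.13). The mean was 1127 ± 1139 CPM (SD, n = 2), so the SD was as large as the level itself.

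*Alpl*, which encodes the phosphatase that removes pyrophosphate, had 0.462 CPM in replicate 1 (20 reads, interval 0.282 to 0.714) and 1.92 CPM in replicate 2 (81 reads, interval 1.53 to 2.39). It was detected above the floor in both libraries, and was 4.16-fold higher in replicate 2 (counting interval 2.52 to 7.16). The gene lies on chromosome 4 from 137741733 to 137796384, minus strand.

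Within each library, the genes that supply pyrophosphate stood far above the gene that removes it. *Enpp1* was 261-fold above *Alpl* per kilobase in replicate 1 and 125-fold in replicate 2, a mean log2 ratio of 7.49 ± 0.75 (SD, n = 2). *Ank* was 776-fold and 1123-fold above *Alpl*, a mean log2 ratio of 9.87 ± 0.38. This ratio had the smallest SD of the 8 gene pairs examined, while *Ank* and *Alpl* each differed more than 4-fold between the libraries. *Alpl* rests on 20 reads in replicate 1, so nothing is read from that small SD. Between the suppliers, *Ank* was 2.97-fold above *Enpp1* per kilobase in replicate 1 and 9.02-fold in replicate 2. The mean log2 ratio of *Enpp1* to *Ank* was -2.37 ± 1.13 (SD, n = 2) and came to -0.87 without division by length.

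**Figure D2:**
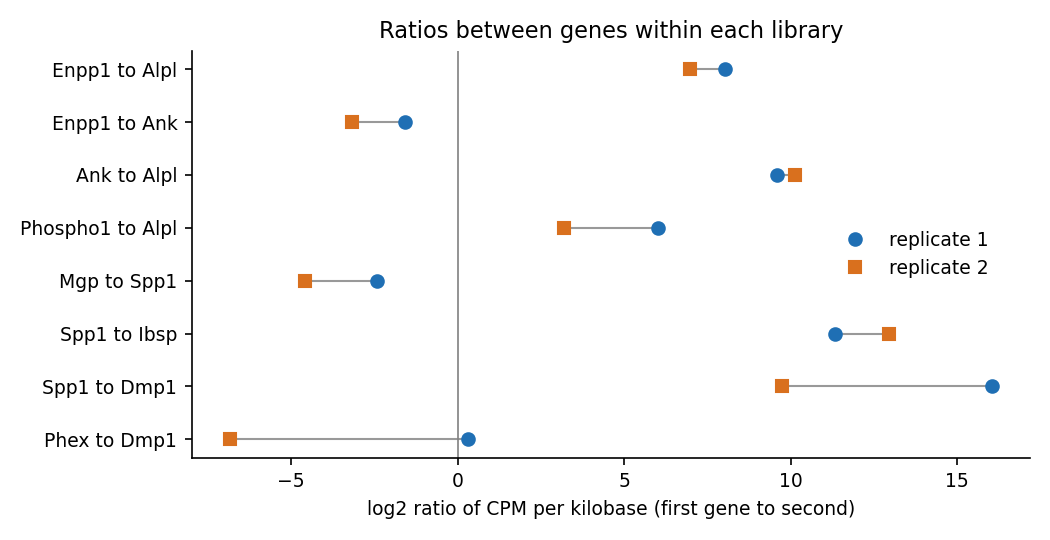
Log2 ratio of CPM per kilobase between the genes of 8 pairs, with a point for each library and a line joining the libraries. *Enpp1* and *Ank* stand 6.96 or more above *Alpl* on this scale in both libraries. Phex to Dmp1 is the only pair whose libraries fall on opposite sides of 0, and in replicate 1 it rests on about 14 and 5 reads.

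The other genes of pyrophosphate, nucleotide and phosphate handling mostly stayed near the median gene between the libraries. Of 11 on the list, 10 had values, 7 reached 10 CPM in a library and 8 had a mean of at least 1 CPM. *Nt5e*, which encodes CD73 and makes adenosine from AMP after ENPP1 has acted, had 564 CPM in replicate 1 against 993 in replicate 2. *Slc20a1* and *Slc20a2*, the sodium-phosphate importers PiT-1 and PiT-2, had 589 and 602 CPM and 13.3 and 22.4 CPM. *Xpr1*, the phosphate exporter, had 33.8 and 40.4 CPM. These genes differed less between the libraries than *Ank* or *Alpl* did. *Ppa1*, a cytosolic pyrophosphatase, had 34.4 and 51.2 CPM, and *Enpp3* had 1.46 and 2.11 CPM. *Enpp2* (autotaxin), a relative of *Enpp1* that acts on lysophospholipids, had 1898 CPM in replicate 1 against 447 in replicate 2. It was the 1 of 8 measured genes of this list past 2-fold and was lower in replicate 2, where 6.06% of all genes were. *Enpp1* went the opposite way. *Abcc6*, an ATP-releasing transporter mainly of the liver, and *Slc34a2*, a phosphate importer of epithelia, were at 0 in both libraries.

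*Phospho1* encodes the phosphatase that frees phosphate from phosphocholine inside matrix vesicles. It lies on chromosome 11 from 95824499 to 95832140 on the plus strand and had 14.9 CPM in replicate 1 against 8.79 in replicate 2, a mean of 11.9 ± 4.33 (SD, n = 2). It was the only one of the 9 genes whose ratio lay well below 1, with a value of 0.589 (counting interval 0.518 to 0.671). Its level is uncertain, because 1818 of its 2029 exonic bases also belong to annotated exons of *Zfp652* on the same strand and 1708 to *Abi3* on the other. *Zfp652*, a zinc finger gene, had 27.3 and 28.9 CPM, and *Abi3* 0.187 and 0.0798 CPM. How the reads were divided between *Phospho1* and *Zfp652* was not tested. As listed, *Phospho1* was 64.2-fold above *Alpl* per kilobase in replicate 1 and 9.09-fold in replicate 2.

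Other genes tied to matrix vesicles were measured beside it. *Smpd3*, the sphingomyelinase that feeds phosphocholine to PHOSPHO1, had 39.2 and 27.3 CPM. The vesicle annexins *Anxa5* and *Anxa6* had 246 and 380.1 CPM and 66.8 and 59.7 CPM. *Anxa2* had 108 CPM in replicate 1 against 277 in replicate 2. It was the 1 of 3 annexins past 2-fold higher, where 7.43% of all genes were.

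*Spp1*, *Ibsp* and *Dmp1* encode acidic, integrin-binding phosphoproteins of bone and other mineralized matrix: osteopontin, bone sialoprotein and dentin matrix protein 1. They lie in 1 cluster on the plus strand of chromosome 5, where *Dmp1* starts 232.5 kb and *Ibsp* 136 kb before *Spp1*. The RefSeq promoter table (GRCm38.p6) held a window for 8 of the 9 genes (not *Mgp*), from 250 bases before to 50 after the start. The 250 bases before the start are printed for the 3 cluster genes, because these neighbours had very different levels. Capitals mark the RUNX motif AACCACA and the CCAAT box, which reads ATTGG where it lies on the minus strand. They are *Spp1* at chr5:104434861-104435110, *Dmp1* at chr5:104202367-104202616 and *Ibsp* at chr5:104299037-104299286, all on the plus strand.
Spp1: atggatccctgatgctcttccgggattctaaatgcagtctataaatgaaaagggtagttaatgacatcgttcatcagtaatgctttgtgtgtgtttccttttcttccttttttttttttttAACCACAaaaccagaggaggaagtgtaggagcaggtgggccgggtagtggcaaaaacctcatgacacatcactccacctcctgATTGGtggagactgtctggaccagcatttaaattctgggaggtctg
Dmp1: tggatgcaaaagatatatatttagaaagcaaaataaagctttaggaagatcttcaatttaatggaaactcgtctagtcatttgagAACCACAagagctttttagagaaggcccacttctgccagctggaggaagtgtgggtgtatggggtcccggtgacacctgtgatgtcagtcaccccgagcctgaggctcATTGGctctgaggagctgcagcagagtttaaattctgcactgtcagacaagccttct
Ibsp: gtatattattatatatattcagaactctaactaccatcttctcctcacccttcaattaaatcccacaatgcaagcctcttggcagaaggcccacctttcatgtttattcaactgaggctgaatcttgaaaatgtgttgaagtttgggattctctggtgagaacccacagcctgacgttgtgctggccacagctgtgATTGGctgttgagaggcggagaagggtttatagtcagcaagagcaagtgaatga
The RUNX motif, searched on both strands, was in the windows of *Spp1* (bases -129 to -123 from the start) and *Dmp1* (-165 to -159) and in no other of the 8, against 5.27% of 32851 windows. A CCAAT box was in the windows of *Spp1*, *Dmp1*, *Ibsp* and *Phospho1*, against 37.4% of all windows. TATAAA was in those of *Spp1* and *Ibsp*, against 13.6%. The motifs did not overlap each other. The 3 cluster windows had 45.3%, 47.3% and 46.3% G and C, in the order printed, against a median of 52.7%. The RefSeq start of *Ibsp* lies 116 bases downstream of the start in GENCODE M21. A match is a run of letters and says nothing of binding.

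*Spp1*, from 104435118 to 104441050 on chromosome 5, encodes osteopontin, which binds hydroxyapatite and, when phosphorylated, slows crystal growth. It had 4620 CPM in replicate 1 against 20524 in replicate 2, which is 0.462% and 2.05% of all CPM. It was the gene of rank 14 in replicate 1 and rank 3 in replicate 2, and its ratio of 4.44 had a counting interval of 4.42 to 4.46. The mean of 12572 ± 11246 CPM (SD, n = 2) therefore describes neither library well. Annotated exons of *Gm42793*, on the same strand, share 309 bases with it, and that gene had 9.29 and 25.5 CPM. *Spp1* was 5.34-fold above *Mgp* per kilobase in replicate 1 and 24.0-fold in replicate 2.

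Osteoclasts and macrophages also make *Spp1*. Of their 10 markers 9 had values, summing to 121 CPM in replicate 1 against 148 in replicate 2, most of it from *Ctsk* at 111 and 144 CPM. *Ocstamp*, *Dcstamp* and *Adgre1* were at 0 in both libraries, and *Csf1r* and *Ptprc* did not exceed 0.103 and 0.0474 CPM. *Acp5* had 6.07 and 0.712 CPM, *Cd68* 2.56 and 2.40 CPM, and *Lyz2* 0.624 and 0.949 CPM. The list thus held genes at 0 beside *Ctsk*, an osteoclast protease, above 110 CPM in both libraries, and the part of these cells in the *Spp1* value was not tested.

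*Ibsp*, from 104299171 to 104311469 on chromosome 5, encodes bone sialoprotein, which starts hydroxyapatite crystals and is used as a marker of mineralizing osteoblasts and hypertrophic cartilage. It had 2.24 CPM in replicate 1 (97 reads) and 3.27 CPM in replicate 2 (138 reads), a mean of 2.76 ± 0.730 (SD, n = 2). The ratio of 1.46 (counting interval 1.12 to 1.91) was close to the shift of 1.23-fold that the median gene showed. *Spp1* exceeded its neighbour *Ibsp* 2587-fold per kilobase in replicate 1 and 7866-fold in replicate 2, a mean log2 ratio of 12.14 ± 1.13 (SD, n = 2).

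*Dmp1*, from 104202613 to 104214102 on chromosome 5, encodes a protein that seeds mineral and, in osteocytes, restrains release of FGF23. It had 0.116 CPM in replicate 1, about 5 reads with an interval of 0.0375 to 0.270 CPM, and 40.4 CPM in replicate 2, about 1704 reads with an interval of 38.5 to 42.4 CPM. The library of replicate 2 thus held nearly all of it, and the rank moved from 16285 to 3424. The ratio was 350-fold, with a wide counting interval of 149.7 to 1079 that comes from the few reads in replicate 1. The log2 ratio per kilobase of *Spp1* to *Dmp1* was 16.03 in replicate 1 and 9.73 in replicate 2, so *Spp1* was 67068-fold and 851-fold higher.

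*Phex*, on chromosome X from 157162075 to 157415312 on the minus strand, encodes an endopeptidase that clears mineral-blocking fragments of these phosphoproteins. It had 0.323 CPM in replicate 1 (14 reads, interval 0.177 to 0.543) and 0.807 CPM in replicate 2 (34 reads, interval 0.559 to 1.13). The ratio of 2.49 had a counting interval of 1.30 to 5.03. At this depth *Phex* was detectable but low in both libraries. Its log2 ratio per kilobase to *Dmp1* was 0.30 in replicate 1 and -6.83 in replicate 2. In replicate 1 this rests on 14 reads of *Phex* and about 5 of *Dmp1*, so their order there is not settled.

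*Dmp1* and *Phex* are also osteocyte markers. Of the 7 markers on that list 6 had values, and their sum was 2.47 CPM in replicate 1 against 64.1 in replicate 2. Without *Dmp1* and *Phex* it was 2.03 and 22.9 CPM, most of the latter from *Reln*, which had 0.0924 and 21.7 CPM. *Pdpn* had 1.94 and 1.19 CPM, and *Sost* and *Mepe* were at 0 in both libraries. *Reln*, a large secreted glycoprotein, therefore moved with *Dmp1*. What part other cells had in the *Dmp1* value was not tested.

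**Figure D3:**
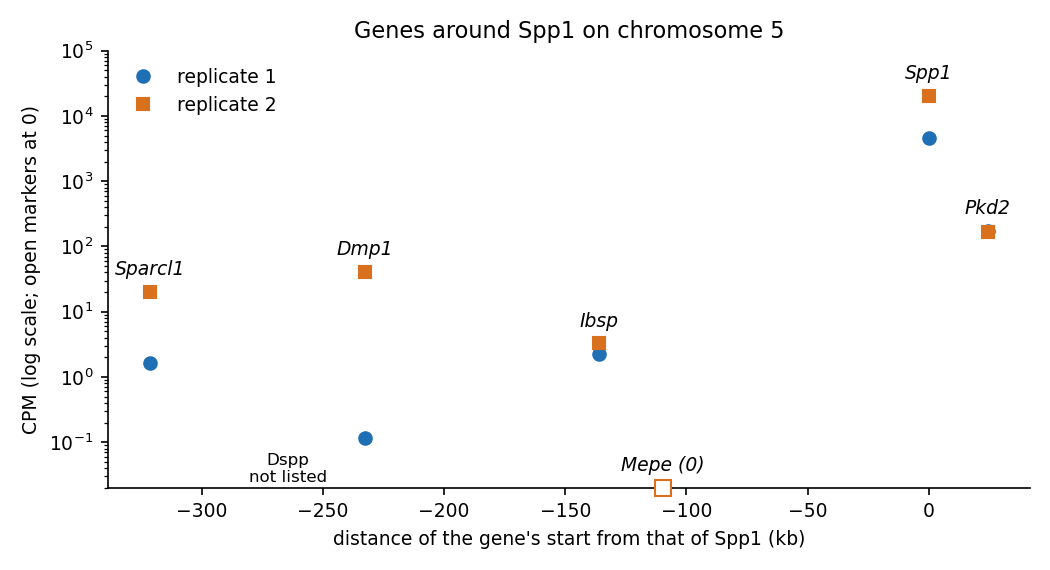
CPM on a log axis of the genes around *Spp1* on chromosome 5, against the distance of each gene's start from that of *Spp1* in kb. Points are replicates 1 and 2 and open markers stand at 0. *Dmp1* and *Sparcl1*, upstream of *Spp1*, are higher in replicate 2, *Ibsp* and *Pkd2* are close to level, and *Mepe* is at 0.

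The neighbours of *Spp1* did not share 1 level or 1 difference between the libraries. *Sparcl1*, a matricellular gene 321 kb upstream, had 1.64 CPM in replicate 1 against 20.1 in replicate 2. *Pkd2*, which encodes polycystin-2 and starts 24.3 kb downstream, had 176 and 166 CPM. *Mepe*, whose protein carries a mineral-blocking peptide, lies between *Ibsp* and *Spp1*, 109.8 kb before the latter, and was at 0. *Dspp* was not among the values. Of the 5 cluster genes that averaged 1 CPM or more, *Sparcl1*, *Dmp1* and *Spp1* were past 2-fold higher in replicate 2, a count that holds 2 of the 9 genes themselves and stands beside 7.43% of all genes.

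The enzymes that modify or cut these phosphoproteins were present. *Fam20c*, the kinase that phosphorylates osteopontin and its relatives, had 19.2 CPM in replicate 1 against 43.9 in replicate 2. *Bmp1*, the protease that cleaves DMP1, had 110.4 and 185 CPM, and *Furin* had 163 and 184 CPM. None of the 3 was past 2-fold, with *Fam20c* nearest at a centred log2 ratio of 0.88. Of the inhibitors that circulate or act locally, *Tnfrsf11b*, which encodes osteoprotegerin, had 308 and 413 CPM and *Sost* was at 0. *Fetub*, a relative of fetuin-A, had 1.22 and 6.50 CPM. It was the 1 of 2 measured genes past 2-fold higher, where 7.43% of all genes were.

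Per kilobase of exon and by the mean of log2 levels, the order of the 9 genes was *Spp1*, *Mgp*, *Ank*, *Enpp1*, *Phospho1*, *Ibsp*, *Dmp1*, *Alpl* and *Phex*. A pair of neighbours was taken as apart where both libraries gave the same order and the mean log2 ratio exceeded its SD. This held for 5 of the 8 neighbouring pairs. *Mgp* and *Ank* were not apart, at 525 and 88.9 CPM per kilobase in replicate 1 but 518 and 535 CPM per kilobase in replicate 2. *Ibsp* and *Dmp1* were not apart either, at 1.08 and 0.0418 CPM per kilobase in replicate 1 and 1.58 and 14.6 CPM per kilobase in replicate 2. The same held for *Dmp1* and *Alpl*, as *Alpl* had 0.115 CPM per kilobase in replicate 1 and 0.476 in replicate 2. The position of *Dmp1* within the promoters thus depended on the library, and that of the promoters below the inhibitors did not. *Phospho1* supplied 85.1% of the promoter sum per kilobase in replicate 1 and 20.5% in replicate 2, whereas *Dmp1* supplied 0.484% and 69.2%.

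**Figure D4:**
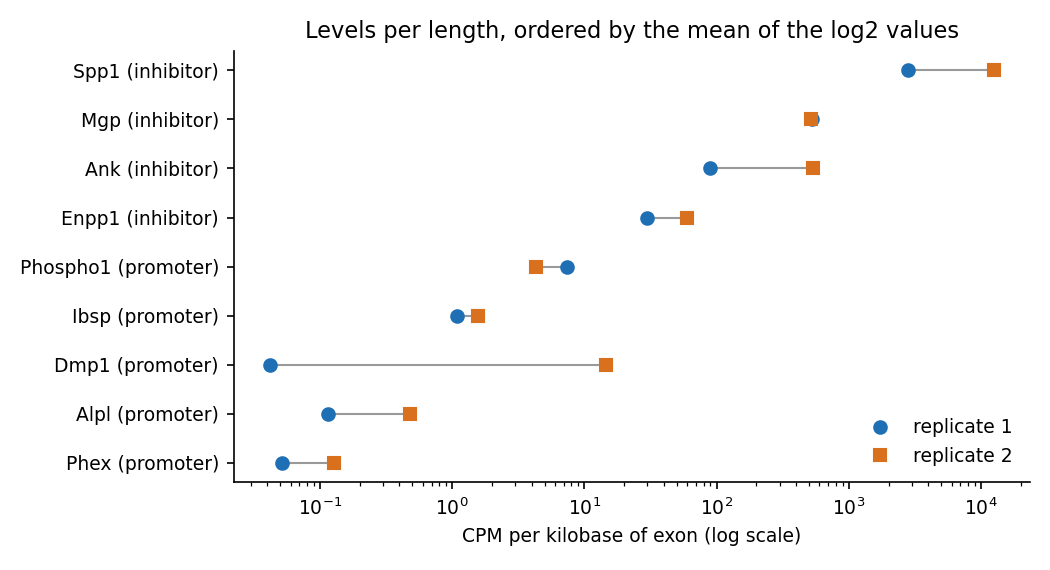
CPM per kilobase of exon on a log axis for the 9 genes, ordered by the mean of the log2 values, with a point for each library. The 4 inhibitors occupy the first 4 places, from 12454 CPM per kilobase for *Spp1* down to 29.9 for *Enpp1*, and the points of *Dmp1* span the range of the promoters.

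To set the differences between the libraries against those of other genes, the log2 ratio of replicate 2 to replicate 1 was taken with a pseudocount of 0.1 CPM, less 0.30, the median over the 12631 genes whose mean reached 1 CPM. Folds on this scale understate the change of low genes. Of the 9 genes, 8 passed the filter, all but *Phex*. *Ank* (2.28), *Spp1* (1.85), *Alpl* (1.54) and *Dmp1* (7.25) were more than 2-fold higher in replicate 2, 4 of 8, where 7.43% of all genes were. *Alpl* and *Dmp1* were below 1 CPM in replicate 1 and passed the filter only through replicate 2, where they were higher, so nothing is read from this count. Without a filter it was 4 of 9, beside 9.29% of 20147 genes. *Phospho1* (-1.06) was more than 2-fold lower, 1 of 8, where 6.06% of all genes were. Without centring, the shares of all genes were 11.4% higher and 3.71% lower, and *Phospho1* at -0.76 was no longer past 2-fold. *Mgp* (-0.32), *Enpp1* (0.68) and *Ibsp* (0.22) were within 2-fold of the median gene.

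The genes higher in replicate 2 came from both sides, *Ank* and *Spp1* from the inhibitors and *Alpl* and *Dmp1* from the promoters. The median centred log2 ratio was 1.27 over the inhibitors, 0.88 over the 4 promoters that passed and 1.11 over the 8 genes, against 0 for all genes by construction. *Alpl* and *Dmp1* passed the filter only through replicate 2. Nothing is therefore read from their place among the promoters or among all genes, or from the medians that hold them. By this filter *Dmp1* had the highest ratio of the 12631 genes, ahead of *Lypd3* at 6.67 and *Reln* at 6.52. *Reln* too passed only through replicate 2, so nothing is read from this order. A ratio as high as that of *Ank* was held by 242 genes (1.92%), as that of *Spp1* by 361 (2.86%) and as that of *Alpl* by 505 (4.0%). A ratio as low as that of *Phospho1* was held by 697 genes (5.52%). The ratio of *Ibsp* was reached by 29.7% of genes and that of *Enpp1* by 11.6%. On the same scale the median was 0.08 over the 8 measured genes of pyrophosphate and phosphate handling, -0.31 over the 6 of the vitamin K list, 0.44 over the 3 modifying enzymes and 0.32 over the 3 annexins. Among the marker lists it was -0.78 for chondrocytes, 0.73 for hypertrophic chondrocytes, -0.40 for osteoclasts and macrophages and -0.10 for smooth muscle and pericytes. It was 6.52 for the 3 osteocyte markers that passed the filter, of which *Dmp1* is a member and *Reln* passed only through replicate 2. The hypertrophic median holds *Panx3*, which passed only through replicate 2. The osteoclast and macrophage median holds *Acp5*, which passed only through replicate 1. Nothing is read from these 3 medians.

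**Figure D5:**
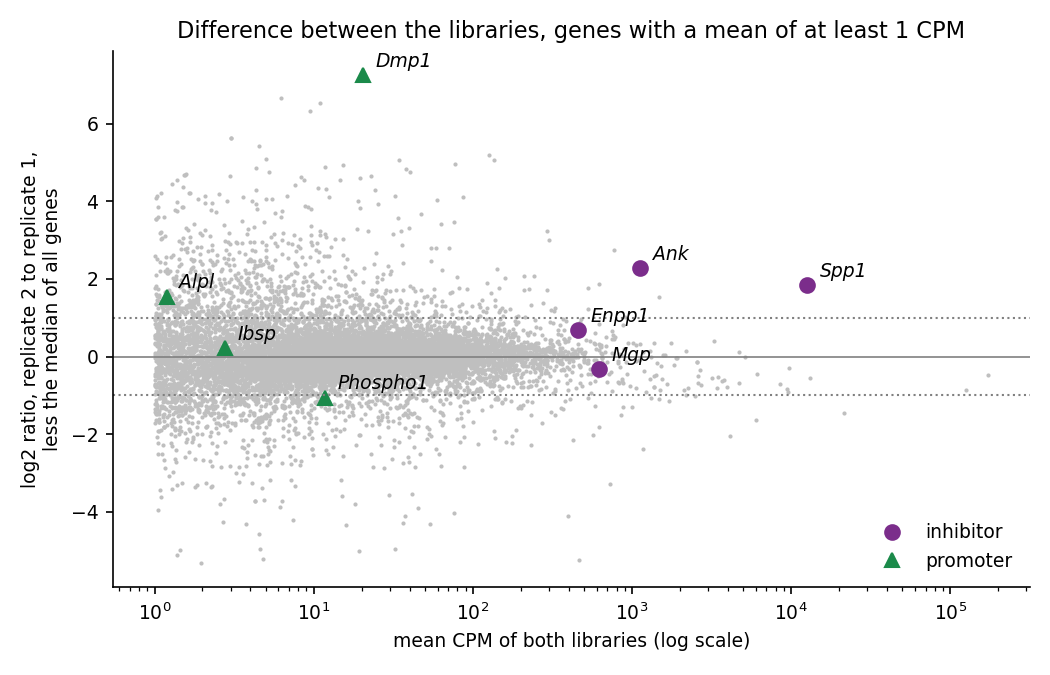
Centred log2 ratio of replicate 2 to replicate 1 against mean CPM on a log axis, with all genes whose mean reached 1 CPM in grey and the members in colour, inhibitors and promoters by shape. *Dmp1* at 7.25 stands above every other gene but passed the filter only through replicate 2. *Phospho1* at -1.06 lies lowest of the 8.

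Markers of hypertrophic chondrocytes and osteoblasts, the cells in which the promoters are best known, moved in part with these genes. Of 7 hypertrophic markers, 6 had a mean of at least 1 CPM. Of these, *Mmp13* and *Panx3* were past 2-fold higher in replicate 2, where 7.43% of all genes were. *Mmp13* had 8.96 and 44.8 CPM. *Panx3* had 0.670 and 2.75 CPM and passed the filter only through replicate 2. *Col10a1* had 1752 and 2109 CPM, *Runx2* had 16.2 and 39.6 CPM, and *Ihh* was at 0 in replicate 1 and 0.332 CPM in replicate 2. *Mef2c* had 7.07 and 12.2 CPM, and *Vegfa* had 103 and 93.1 CPM. The list summed to 1888 and 2302 CPM, most of it from *Col10a1*, whose centred log2 ratio was -0.04. Among the osteoblast markers, 6 had a mean of at least 1 CPM. Of these, 2 were past 2-fold higher in replicate 2, where 7.43% of all genes were. *Sp7*, a transcription factor of bone formation, was 1 of them, at 1.96 and 6.81 CPM. *Col1a1*, at 1166 and 584 CPM, was the 1 past 2-fold lower, where 6.06% of all genes were. *Bglap2* had a centred log2 ratio of 0.05. *Ibsp* followed the median gene. As *Alpl* and *Dmp1* passed the filter only through replicate 2, nothing is read from *Sp7* being higher beside them. The part of these cells in the differences between the libraries was not tested.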

How the data were processed

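Per the labels and the study's methods, poly(A) RNA of 2 chondrosphere libraries was sequenced and the deposited values are CPM. The authors aligned reads to GRCm38 (mm10) with STAR 2.7.3a and assigned them to GENCODE M25 genes in Partek 10.0.21.0801 by an expectation-maximization method that can split reads between genes. Only 64.5% and 63.1% of low values were whole reads (tolerance 0.02 reads), so no count model was fitted, and the implied reads are approximate. The strand setting of the counting is not given in the sources used here.

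The constant offset was subtracted. Levels were compared between genes per kilobase of merged exons (GENCODE M21, where 22965 of 23628 names, 97.2%, matched 1 gene), with a pseudocount of 0.01 in logs. Both libraries belong to 1 group, so there is no test and no p-value, and the error is the SD between them (n = 2). The members, the lists and the rules were chosen with earlier results of these data known. Named genes were the 9 members and, from the 6 other gene lists and 6 marker lists, those at 10 CPM or more, past 2-fold or at 0, of which the marker lists are given in part and 1 osteoblast marker is not reported here. Scripts ran on Python 3.11.15 with pandas 2.3.3, numpy 2.4.6, matplotlib 3.10.9 and scipy 1.17.1, and the ratio step was tested on simulated data. Alternatives varied length, the per-library total, pseudocount, centring, filter, members and libraries. Those that left out *Phospho1* were chosen after seeing the data.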

Additional observations from a re-analysis of the deposited data

How the results depend on the processing

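Of 141 alternative values for 31 results, 123 were taken as unchanged. These kept their direction and their side of 2-fold, moved by under 1 SD between libraries or, for counts, stayed close to the main count. Close takes in 3 genes higher in place of 4, and 4 or 6 neighbouring pairs apart in place of 5. Leaving out a library gave 40 of the 141 values, and 39 of these are among the 123. With 2 libraries such a value lies within 1 SD of the mean by construction. Likewise, a count of 20 pairs in both libraries is 20 in each. These 39 values therefore say nothing of robustness. The mean log2 ratio of summed inhibitors to summed promoters, 8.98, was 5.97 without *Spp1* and 9.83 without *Dmp1*. It was 10.52 without *Phospho1* and 12.01 without *Phospho1* and *Dmp1*, both chosen after seeing the data. It stayed positive in each of these. The count of genes lower in replicate 2, 1, was 0 with a pseudocount of 1 CPM and 0 without centring, as *Phospho1* came to -0.98 and -0.76. The shares of all genes that were lower at these settings were 4.35% and 3.71%. *Alpl* came to 0.72 with a pseudocount of 1 CPM, which left 3 of 8 genes higher, where 5.38% of all genes were. With a mean of at least 10 CPM required, 3 of 6 were higher against 3.75% of 7903 genes. *Dmp1* is in both counts and passed each filter only through replicate 2, so nothing is read from either. Leaving out a library reversed 1 value, the log2 ratio of *Phex* to *Dmp1*, which ranged from -6.83 to 0.30. A total without the 10 highest genes raised the mean level of *Mgp* to 1028 CPM, *Enpp1* to 742, *Phospho1* to 20.04, *Ibsp* to 4.51 and *Phex* to 0.908. Without division by length, *Enpp1* to *Alpl* came to 8.84 and *Enpp1* to *Ank* to -0.87, and with the longest coding transcript *Ank* to *Alpl* came to 9.24. The order per length was the same with the longest coding transcript, and without division by length *Ank* stood before *Mgp*. No paired analysis was possible because both libraries belong to 1 group. With 2 libraries the SD has 1 degree of freedom, and *Dmp1* in replicate 1, on about 5 reads, limits each ratio that uses it.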
